A study of Mus musculus with 2 samples.

Results

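The 10 genes described here are the ligand gene Fgf4, the receptor genes Fgfr1 and Fgfr2, the feedback inhibitor genes Spry2, Spry4, Spred1 and Dusp6, and the ERK-responsive transcription factor genes Etv4, Etv5 and Egr1. They were taken by symbol, through the GENCODE M21 annotation of GRCm38, from a deposited table of read counts for 55421 genes, and all 10 were found. The table holds 2 libraries of polyadenylated RNA from E14 mouse embryonic stem (ES) cells with a knockout of Ago1, a line of 129/Ola background labelled as blastocyst, which were grown on gelatin in medium with serum and leukaemia inhibitory factor (LIF). These duplicates, called KO1 and KO2, are the only group, so every level below comes from libraries labelled as knockout, and no control library was used here. The labels do not say how Ago1 was disrupted or whether the duplicates were separate clones or cultures. Their spread may therefore be technical.

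Fibroblast growth factor 4 (FGF4) is secreted by ES cells and signals back to them through FGF receptors, with heparan sulphate as a cofactor. The receptors pass the signal through the adaptors FRS2 and GRB2 to Ras, Raf, MEK and the kinase ERK, which moves ES cells away from naive pluripotency and, in the blastocyst, directs inner cell mass cells to primitive endoderm. ERK activity raises transcription of its own inhibitors (Sprouty and Spred proteins, dual-specificity phosphatases) and of ETS-family and early growth response factors, so these transcripts are commonly used as a readout of the pathway.

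Mature microRNAs pair with 3′ UTRs mainly through their seed, bases 2 to 8, and act in Argonaute complexes. Seeds of microRNAs known from ES cells (the miR-290 and miR-302 clusters), of let-7 and of miR-21 and miR-126, both known for Sprouty or Spred targets, were therefore searched in the 3′ UTRs of the 10 genes. Of the 9 mature sequences searched 7 had a match, and 4 that stand for the 3 matching seeds are shown 5′ to 3′ as RefSeq gives them for GRCm38.p6, with the seed in capitals.
mmu-miR-294-3p: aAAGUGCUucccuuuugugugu
mmu-miR-302b-3p: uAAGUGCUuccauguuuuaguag
mmu-let-7a-5p: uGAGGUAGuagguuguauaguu
mmu-miR-21a-5p: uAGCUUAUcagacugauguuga
miR-294-3p and miR-302b-3p share the seed AAGUGCU, which miR-291a-3p, miR-295-3p and miR-302d-3p also carry.

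A full complement of a seed was present in 3 of the 10 genes, each on the strand of the transcript. The sites below come from the GENCODE M21 transcripts (GRCm38) and lie in the 3′ UTR of the longest coding transcript, with the seed complement in capitals.
Fgf4 site for AAGUGCU (chr7:144862978-144863000, plus strand): ctacccctcaggaggAGCACTTt
Fgf4 site for GAGGUAG (chr7:144863859-144863881, plus strand): gaattctatccccatCTACCTCa
Spred1 site for AAGUGCU (chr2:117180866-117180888, plus strand): tgctggaagaattgaAGCACTTt
Spry2 site for AGCUUAU (chr14:105892498-105892520, minus strand): ggagacccacattgcATAAGCTa
Among 12085 detected protein-coding genes with a 3′ UTR, 17.6% held the complement of AAGUGCU, 10.7% that of the let-7 seed GAGGUAG and 7.84% that of the miR-21 seed AGCUUAU. The seeds of miR-290a-3p (AAGUGCC) and miR-126a-3p (CGUACCG) matched none of the 10 genes and 9.78% and 0.207% of all. The 3′ UTRs searched were from 619 bases in Etv4 to 4330 in Spred1, beside a median of 1164 over all genes, and a longer one has more room for a match. The share of all genes with a match to any of the seeds was not computed, so the count of 3 of 10 has no share to stand beside. No microRNA was measured in these libraries, and a match describes letters only.

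RefSeq promoter windows, from 250 bases before to 50 after an annotated start, were at hand for 6 of the 10 genes (7 windows). Those of Fgf4, the leading ligand, and Etv5, the most abundant of the 10 genes, are shown 5′ to 3′ on the strand of the gene in GRCm38.p6. Capitals mark TATATA, the GC box GGGCGG and the CCAAT box, each searched on both strands.
Fgf4 promoter (chr7:144861136-144861435, plus strand): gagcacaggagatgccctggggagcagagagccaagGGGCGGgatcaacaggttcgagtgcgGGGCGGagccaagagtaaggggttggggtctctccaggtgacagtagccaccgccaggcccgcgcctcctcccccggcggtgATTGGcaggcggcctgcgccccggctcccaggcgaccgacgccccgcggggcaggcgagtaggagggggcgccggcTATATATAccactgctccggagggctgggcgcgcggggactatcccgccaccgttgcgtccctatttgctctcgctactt
Etv5 promoter (chr16:22439521-22439820, minus strand): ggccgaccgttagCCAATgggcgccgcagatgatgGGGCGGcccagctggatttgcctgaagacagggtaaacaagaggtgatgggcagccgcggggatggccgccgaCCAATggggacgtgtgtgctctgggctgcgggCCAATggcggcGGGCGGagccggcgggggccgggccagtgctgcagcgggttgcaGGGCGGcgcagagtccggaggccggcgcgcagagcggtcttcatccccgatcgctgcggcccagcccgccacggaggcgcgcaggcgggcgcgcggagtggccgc
In the Fgf4 window, 2 overlapping TATATA matches began at -30 and -28, counted from the first transcribed base as 1, with GC boxes at -214 and -188 and 1 reverse CCAAT at -106. TATATA was in 5.67% of 32851 windows of this length, GGGCGG in 35.7% and CCAAT in 37.4%. The Etv5 window held 3 CCAAT at -237, -142 and -110, 3 GC boxes at -215, -99 and -55, and no TATATA. Its GC content was 74% and that of the Fgf4 window 69.7%, beside a median of 52.7% over all windows. The ETS core CCGGAA was found in 1 of the 7 windows, that of Spry2, and in 14.9% of all. The PEA3 motif AGGAAG, in 35.4% of all windows, was in those of Dusp6, Fgfr2 and the other Etv5 start. TATAAA (13.6% of all), the CRE TGACGTCA (1.79%), the AP-1 motif TGANTCA (7.81%) and the CArG box (1.63%) were in none of the 7. Motifs were counted where they overlapped, and a match is no measurement of binding. Fgfr1, Spry4, Etv4 and Egr1 are named only.

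Library totals were 57048330 counts in KO1 and 54408708 in KO2. Counts were scaled to counts per 1000000 (CPM) with trimmed mean of M values (TMM) factors, and 3 counts, the limit that a count of 0 allows, came to 0.0528 CPM in KO1 and 0.0549 CPM in KO2. Ago1, the targeted gene, kept 1497 counts in KO1 and 452 in KO2, or 26.4 CPM (95% exact Poisson interval 25.03 to 27.7) and 8.27 CPM (7.53 to 9.07). Ago1 was thus lower in KO2, with a log2 ratio of -1.67, and it was detected in both. With no control library its level does not show the knockout, and a count for a whole gene cannot tell from which exons its reads came. A gene was called detected where both libraries reached 1 CPM. Of 6 ES-cell markers, 6 were detected, led by Pou5f1 at 781 and 1170 CPM. Of 7 fibroblast markers, listed for feeder cells, only Thy1 was detected, at 20.4 and 23.9 CPM, and neither library had a read of Lum or Postn. Among 8 listed skeletal muscle genes, 7 were lower in KO2 beyond 2-fold (rule below), beside 0.0768% of all genes with 50 or more counts. That share stands for 12 genes, these 7 among them. All lists were chosen with earlier results of these data known, so 7 of 8 is a description and no independent result. These 7 summed to 636 counts in KO1 and 93 in KO2 (11.2 and 1.70 CPM). Mylpf, abundant in both libraries, went the other way as counted, at a log2 ratio of 0.19 (0.14 to 0.24). After the correction for GC content described below it was at -0.01 (-0.06 to 0.04). With Mylpf included the sums were level, at 6144 and 6138. Of the 7, Tnnc2 has 74% of its exons under a gene of the opposite strand, Atp2a1 21.9% and Ckm 15.5%. Reads of such partners cannot be told apart without a stated strand setting. Whether RNA from other cells touched the values below was not tested. Intervals cover counting error only and leave out variation between libraries. They may be too narrow even for counting error, since PCR copies are not independent molecules.

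All 10 genes were detected, beside 24.1% of all genes in the table and 55.3% of protein-coding genes. Their levels, compared per length as CPM per kb of exons, ran from 0.874 to 127, a 145-fold range that came to 64.3-fold per length of the longest transcript. Etv5 ranked highest and both receptor genes lowest. The median percentile of the 10 genes was 88.6 among the levels of 12148 detected protein-coding genes, whose median was 5.85 CPM per kb.

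**Figure D1:**
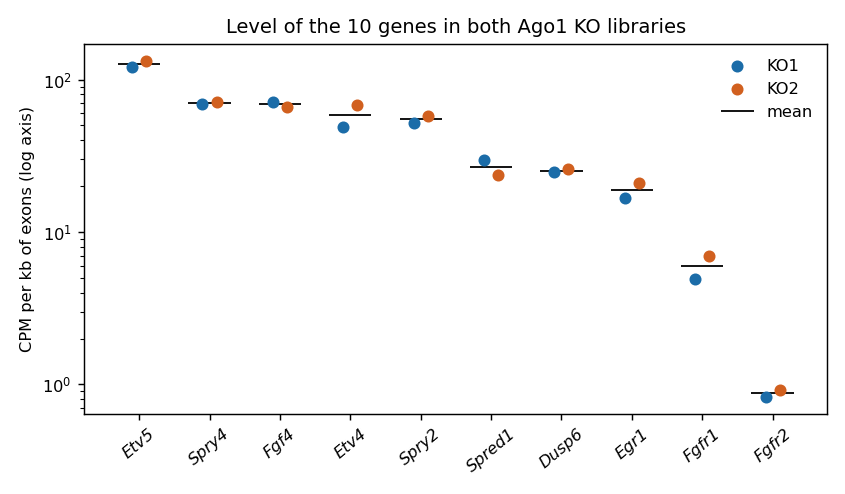
Levels of the 10 genes in KO1 (blue) and KO2 (orange), in CPM per kb of exons on a log axis, with the mean of both libraries as a bar. Etv5 is highest at 127 and Fgfr2 lowest at 0.874, and in 4 of the 9 neighbouring pairs the order differs between the libraries.

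Fgf4, the ligand gene, lies on chromosome 7 from 144847367 to 144865243 on the plus strand (ENSMUSG00000050917, 4 exon blocks). It had 13008 counts in KO1 and 11474 in KO2, which is 71.7 and 65.7 CPM per kb, with a mean of 68.7 ± 4.19 (SD, n = 2). Spry4 and Etv5 were above it by their means, and its percentile was 94.6. GENCODE starts the gene 14019 bases before the RefSeq start shown above, so the annotated gene is longer than the transcript that begins there.

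Fgf4 made up most of the level of the FGF family in both libraries. Of the summed CPM per kb of 22 FGF genes it held 83.3% in KO1 and 79.1% in KO2, 81.2% ± 2.95 on average (SD, n = 2). These include Fgf11 to Fgf14, which encode intracellular FGF homologous factors and no secreted ligand, and without them the share was 83.3% ± 3.21. Fgf17 came next with 6.02 and 9.09 CPM per kb, and Fgf15, an FGF that acts as a gut hormone later in life, followed with 2.64 and 2.72. Fgf4 was thus 11.9-fold above Fgf17 in KO1 and 7.23-fold in KO2, with the ranges of the libraries apart. Of the other 21 FGF genes 8 were detected, or 6 of the 17 without Fgf11 to Fgf14, where 55.3% of protein-coding genes were. Fgf5, a marker of primed epiblast, had 12 and 20 counts, and Fgf8 had 3 and 5, both under 1 CPM. At the bottom of the list, Fgf6 had 0 reads in KO1 beside 2 in KO2, and Fgf16 had 0 in both.

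The receptor genes were the least abundant of the 10. Fgfr1, encoding the main FGF4 receptor of ES cells (chromosome 8, 25513654 to 25575718, plus strand, ENSMUSG00000031565), had 2764 counts in KO1 and 3758 in KO2. Its level was 4.93 and 6.97 CPM per kb, with a mean of 5.95 ± 1.44 (SD, n = 2), with a percentile of 50.4 among detected protein-coding genes. Fgfr2, whose product is prominent in primitive endoderm (chromosome 7, 130162451 to 133123350, minus strand, ENSMUSG00000030849), had 486 and 519 counts. It was at 0.828 and 0.920 CPM per kb, a mean of 0.874 ± 0.0647, with a percentile of 13.2. GENCODE starts Fgfr2 2856542 bases before the RefSeq start of its promoter window, so the annotated gene is far longer than the transcript that begins there. How much this adds to its union of exons was not tested.

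Fgfr1 exceeded Fgfr2 by 5.95-fold in KO1 and 7.57-fold in KO2, and it carried 68.5% and 68.3% of the summed level of Fgfr1 to Fgfr4. Fgfr4 lay at 0.969 and 1.62 CPM per kb and Fgfr3 at 0.467 and 0.693. The ranges of Fgfr1 did not overlap those of the other 3 receptor genes. Between Fgfr4 and Fgfr2 the order depended on the length used: Fgfr4 was 1.48-fold higher per union of exons and 0.677-fold per longest transcript. Fgfr2 has 27 annotated transcripts, with a union of 10328 bases against 4429 in the longest, and Fgfr1 has 19, with 9875 against 5041. With the longest transcript the means rose to 11.6 CPM per kb for Fgfr1 and 2.04 for Fgfr2. Both stayed at the end of the order. Exons of Fgfr1 lie to 1.66% under Gm16159 on the opposite strand and those of Fgfr2 to 3.04% under Ctbp2 on the same strand, and the other 8 genes overlap no annotated exon. Without a stated strand setting, reads of a gene and its antisense partner cannot be told apart, which also touches Fgfr3 (13.9% of its exons under such a partner), Fgf15 (25.7%) and Eras (12.5%).

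The Sprouty genes encode cytoplasmic inhibitors that block Ras activation below receptor tyrosine kinases. Spry4 (chromosome 18, 38586247 to 38601415, minus strand, ENSMUSG00000024427) had 18772 counts in KO1 and 18654 in KO2, or 69.5 and 71.8 CPM per kb, with a mean of 70.6 ± 1.64 (SD, n = 2). Spry2 (chromosome 14, 105891947 to 105896819, minus strand, ENSMUSG00000022114) had 6145 and 6610 counts, or 51.8 and 57.97 CPM per kb, with a mean of 54.9 ± 4.34. Spry4 was above Spry2 in both libraries, by 1.34-fold and 1.24-fold. Together they held nearly all of the Sprouty level, 52.7% ± 1.31 for Spry4 and 40.9% ± 1.28 for Spry2. Spry1 followed at 7.97 and 8.61 CPM per kb, with 24.4% of its exons under a gene of the opposite strand, and Spry3 was not detected, with 46 and 40 counts.

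Spred1, a Sprouty relative that recruits the Ras inactivator neurofibromin, lies on chromosome 2 (117121374 to 117182279, plus strand, ENSMUSG00000027351). It had 11519 counts in KO1 and 8721 in KO2, or 29.9 and 23.5 CPM per kb, with a mean of 26.7 ± 4.50 (SD, n = 2). Spred2 was alike in level at 22.9 and 24.3 CPM per kb, and its range lay in part within that of Spred1. Spred1 was the higher of the pair in KO1 and the lower in KO2. Spred3 was at 0.527 and 0.568 CPM per kb.

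Dusp6 encodes the cytoplasmic phosphatase that removes the activating phosphates of ERK (chromosome 10, 99263231 to 99267489, plus strand, ENSMUSG00000019960). It had 4395 counts in KO1 and 4419 in KO2, or 24.7 and 25.8 CPM per kb, with a mean of 25.3 ± 0.795 (SD, n = 2). Among 7 listed phosphatase genes it held 30.4% ± 4.69 of the level and was second to Dusp9, an X-linked relative that also acts on ERK. Dusp9 was at 32.5 and 49.4 CPM per kb, 1.32-fold above Dusp6 in KO1 and 1.91-fold in KO2. Dusp4, a nuclear phosphatase, lay at 3.20 and 4.52 CPM per kb.

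Etv5 and Etv4 encode ETS-family transcription factors of the PEA3 group that FGF signalling induces. Etv5 (chromosome 16, 22381309 to 22439719, minus strand, ENSMUSG00000013089) had 28179 counts in KO1 and 29796 in KO2, or 121 and 133 CPM per kb. Its mean of 127 ± 8.51 (SD, n = 2) was the highest of the 10 genes, with a percentile of 97.5. Etv4 (chromosome 11, 101769742 to 101785371, minus strand, ENSMUSG00000017724) had 8640 and 11568 counts, or 48.995 and 68.2 CPM per kb, with a mean of 58.6 ± 13.6. Etv5 was above Etv4 by 2.47-fold in KO1 and 1.95-fold in KO2. The remaining PEA3 gene, Etv1, was at 3.66 and 2.79 CPM per kb, so that Etv5 held 67.4% ± 3.17 of the group and Etv4 30.8% ± 3.69.

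Egr1 encodes a zinc finger factor of the immediate early response (chromosome 18, 34859823 to 34864984, plus strand, ENSMUSG00000038418). It had 4278 counts in KO1 and 5171 in KO2, or 16.8 and 21.1 CPM per kb, with a mean of 18.95 ± 3.05 (SD, n = 2). Its relatives Egr2 and Egr3 were not detected: Egr2 had 4 and 5 counts and Egr3 had 8 and 4. Egr1 held 99.1% ± 0.237 of the summed level of Egr1 to Egr4.

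**Figure D2:**
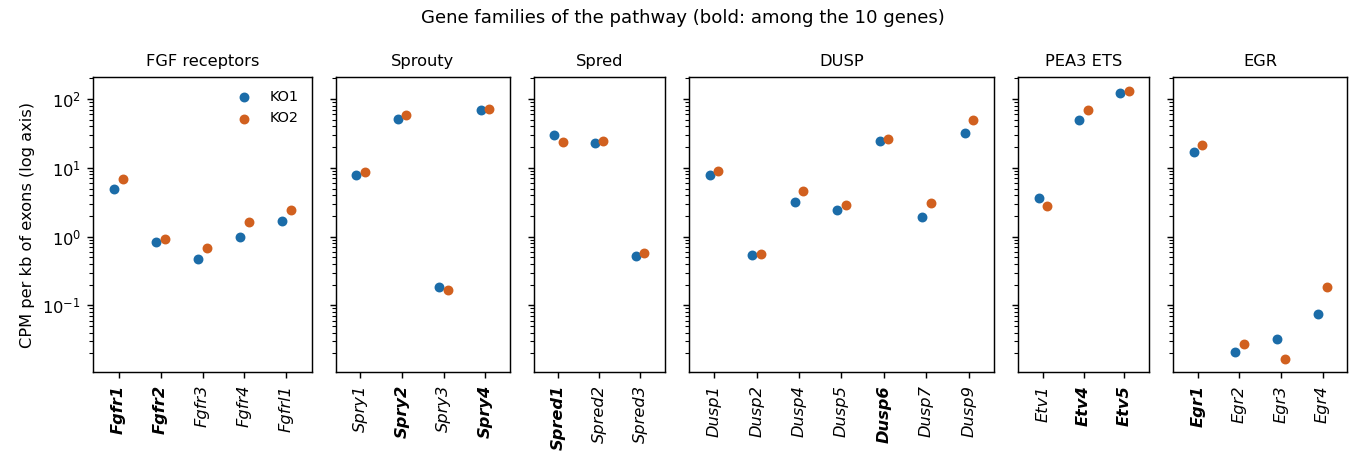
Levels of gene families of the pathway in KO1 (blue) and KO2 (orange), in CPM per kb of exons on a log axis, with the 10 genes in bold. Fgfr1, Spry4, Etv5 and Egr1 lead their families, Spred1 and Spred2 lie side by side, and Dusp9 stands above Dusp6.

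In the order of levels, some neighbours could not be told apart. Spry4, Fgf4, Etv4 and Spry2, with means from 54.9 to 70.6 CPM per kb, changed places between the libraries: Fgf4 was the highest of these 4 in KO1 and below Spry4 and Etv4 in KO2, and Etv4 was the lowest in KO1 and above Fgf4 and Spry2 in KO2. Spred1 and Dusp6 also exchanged places. Outside these 2 sets, the ranges of neighbours did not overlap, with Etv5 1.80-fold above Spry4, Spry2 2.06-fold above Spred1, Dusp6 1.33-fold above Egr1, and Egr1 3.19-fold above Fgfr1. Per longest transcript the last of these was 1.63-fold. With 2 libraries no test of this order was made.

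The duplicates were then compared for each gene. The ratio of scaled counts, KO2 over KO1, was beyond 2-fold, with its whole 95% counting interval (exact conditional binomial), for 0 of the 10, where 1.06% of 15619 genes were. These are the genes with 50 or more counts over both libraries. At 1.5-fold the count was 0 of 10, beside 6.60% of all genes. At such shares a count of 0 among 10 genes sets them apart from no other genes. After a correction for GC content, it was again 0 of 10, beside 0.243%. The interval excluded equality for 9 of 10, beside 65.5% of all genes. It lay above for 7 of 10, beside 34.3%, and below for 2 of 10, beside 31.2%, so at this depth small differences exceed counting error for most genes, and the share says little about these 10. There is no replicate check for a ratio between duplicates, and no p-value was computed.

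The highest ratios were those of Fgfr1, with a log2 ratio of 0.50 (0.43 to 0.57), and Etv4, with 0.48 (0.44 to 0.52), followed by Egr1 with 0.33 (0.27 to 0.39). These correspond to 1.41-, 1.39- and 1.26-fold more in KO2. Spred1 was lowest at -0.35 (-0.39 to -0.30), and Fgf4 was at -0.12 (-0.16 to -0.09). Spry2 at 0.16 (0.11 to 0.21), Etv5 at 0.14 (0.11 to 0.16), Dusp6 at 0.06 (0.0037 to 0.12) and Spry4 at 0.05 (0.02 to 0.08) differed little, and the interval of Fgfr2 at 0.15 (-0.03 to 0.33) included 0. The median of the 10 genes was 0.14, with 8 of 10 above 0, beside a median of 0.01, with 7965 of 15619 above 0, over all genes tested. All 10 lay within the 5th to 95th percentile of all genes, from -0.49 to 0.86.

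**Figure D3:**
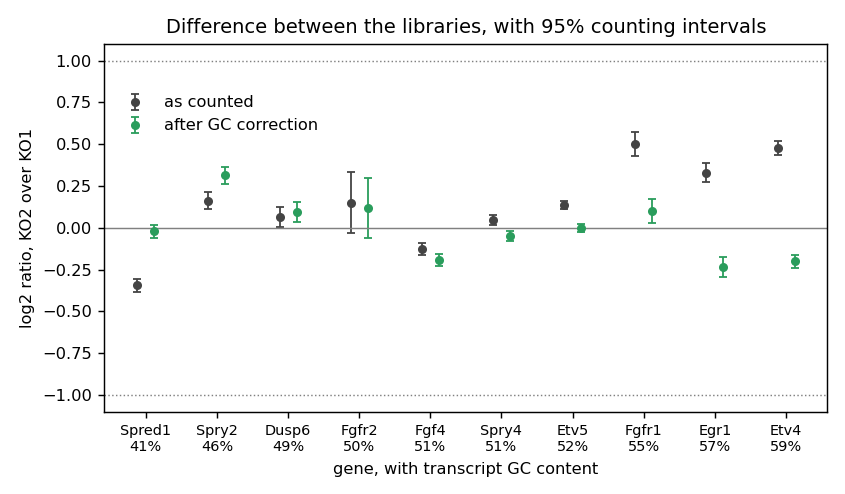
Log2 ratio of KO2 over KO1 for the 10 genes, in order of transcript GC content, with 95% counting intervals, as counted (grey) and after a correction for GC content (green). Dotted lines mark 2-fold, which no gene reaches, and with the correction Etv4, Egr1 and Spry4 change sign with intervals that exclude 0, and Etv5 moves from 0.14 to -0.0037.

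The ratios moved with the GC content of the transcripts. Spred1, the most AT-rich of the 10 with 41.2% GC, had the lowest ratio, whereas Etv4 (58.7%), Egr1 (57.3%) and Fgfr1 (55.4%) had the 3 highest. Over the 10 genes, Pearson's r between ratio and GC content was 0.85 and Spearman's rho 0.65. Over 15603 genes rho was 0.81. Both are descriptions across genes that share the same 2 libraries. After a loess correction for GC content the median of the 10 genes was -0.01, beside -0.01 over all genes, and 4 of 10 were above 0. Fgfr1 then lay at 0.10 (0.03 to 0.17). Spred1 at -0.02 (-0.06 to 0.02) and Etv5 at -0.0037 (-0.03 to 0.02), the latter with its sign turned, had intervals that included 0. Etv4 fell to -0.20 (-0.24 to -0.16), Egr1 to -0.23 (-0.29 to -0.18) and Spry4 to -0.05 (-0.08 to -0.02), each opposite in sign to its uncorrected ratio. Spry2 moved away from equality, to 0.31 (0.26 to 0.36), the highest of the 10, and Fgf4 to -0.19 (-0.23 to -0.16). The corrected ratios of all genes ran from -0.40 to 0.43 between the 5th and 95th percentile, so none of the 10 stood outside. A biological difference between the duplicates and a GC effect of library preparation cannot be told apart for any single gene.

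**Figure D4:**
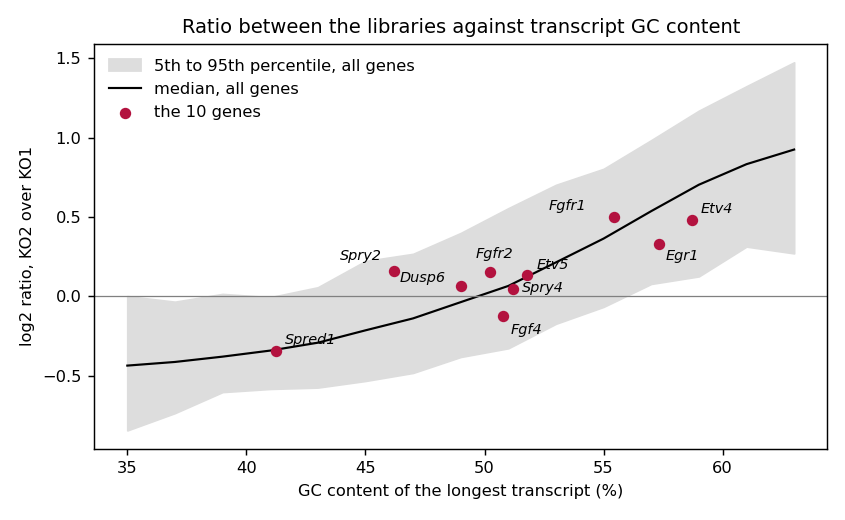
Log2 ratio of KO2 over KO1 against the GC content of the longest transcript. The 10 genes (red) follow the median of all genes tested (line, in bins of GC content) and lie inside its 5th to 95th percentile band (grey), with Spry2 above and Fgf4, Egr1 and Etv4 below the line.

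The rest of the pathway was described by 6 lists of 122 genes, of which 97 were detected. The shares to set beside this count and those of the lists below are 24.1% of all genes and 55.3% of protein-coding genes. By the 2-fold rule 3 of 104 with 50 or more counts were higher in KO2 and 0 lower, where 0.98% and 0.0768% of all genes were. The median log2 ratio of these genes was 0.13, and -0.01 after the GC correction.

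Of 25 receptor and heparan sulphate genes 21 were detected, with the syndecan gene Sdc4 at 25.97 and 28.5 CPM per kb and the glypican gene Gpc4 at 20.1 and 19.97. Kl, a co-receptor of endocrine FGFs, and Gpc6 were lowest, with 8 counts in each library and with 42 and 36. Among 13 adaptor genes 12 were detected. Gab1, a docking protein gene, led at 73.7 and 76.4 CPM per kb, above Fgf4 and Spry4 in both libraries, and Grb2 followed at 39.2 and 41.2. Sos2, an exchange factor for Ras, was at 1.27 and 1.09, and Gab2 was not detected, with 18 and 11 counts.

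Of 20 genes of the Ras to ERK cascade 19 were detected. The ES-cell Ras gene Eras, among the highest of them, lay at 42.5 and 57.7 CPM per kb. The scaffold genes Ksr1, at 1.15 and 1.91 CPM per kb, and Ksr2, at 0.0674 and 0.0970, were lowest. Map2k2, encoding a MEK kinase, was the gene of this list past the 2-fold rule, with 1330 counts in KO1 and 2861 in KO2 and a log2 ratio of 1.16 (1.07 to 1.26). After the GC correction it was at 0.37 (0.28 to 0.47).

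Among 20 further negative regulators 19 were detected, led by Dusp9 and by Erf, an ETS repressor that ERK exports from the nucleus, at 23.04 and 44.7 CPM per kb. Of 23 further ERK targets 18 were detected, led by Mcl1, a survival gene of the BCL2 family, at 182 and 144 CPM per kb. The early gene Ier2, second by its mean, was at 22.7 and 50.02, and in KO1 it lay below Ccnd1 and Myc, which are named here after their values were seen. Ier2 and the AP-1 gene Junb were past the 2-fold rule, with log2 ratios of 1.14 (1.06 to 1.22) and 2.01 (1.79 to 2.24). After the GC correction Ier2 was at 0.32 (0.25 to 0.40) and Junb at 1.11 (0.89 to 1.34), whose interval no longer lay beyond 2-fold. Egr1, also an immediate early gene, was at 0.33 as counted and -0.23 after the correction. The 10 genes had a median of 40.8 CPM per kb, beside 15.6 for adaptors, 11.5 for the cascade, 4.45 for negative regulators, 2.45 for receptors and cofactors, 2.01 for ERK targets and 0.115 for the other FGF genes. The lists leave out the 10 genes, several of which lead their families, and all were chosen with earlier results known. The order of these medians therefore depends on how the genes were chosen and is no independent result.

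**Figure D5:**
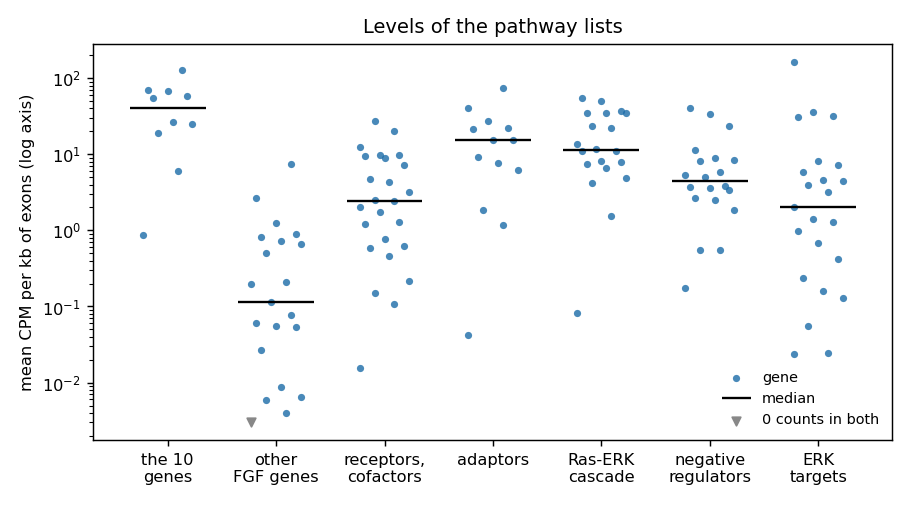
Mean level of each gene of the 10 and of the 6 pathway lists, in CPM per kb of exons on a log axis, with list medians as bars. The 10 genes have the highest median at 40.8 and the 21 FGF genes other than Fgf4 the lowest at 0.115, with Fgf16, which had 0 counts, drawn as a triangle. The lists leave out the 10 genes, so the order of medians depends on how genes were chosen.

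Markers of states linked to FGF signalling were read beside these levels. Of 6 primitive endoderm markers 6 were detected, from Sox17 at 2.25 and 3.15 CPM to Dab2 at 57.1 and 54.96, with Gata6 at 9.68 and 10.2. Of 5 primed epiblast markers 3 were detected, Otx2 at 14.4 and 15.2 CPM, Sfrp2 at 7.08 and 8.11 and Pou3f1 at 3.22 and 4.52. Among 5 trophectoderm markers Krt8 and Tfap2c were detected, whereas Cdx2 and Elf5 were under 1 CPM in both libraries. In bulk RNA, a few cells with much of a transcript and many cells with little cannot be told apart, and this holds for the 10 genes too.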

How the data were processed

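The authors deposited 1 table of raw read counts per Ensembl gene, with 1 column for each of the 2 libraries. Per the labels' protocols, Trizol RNA went into polyadenylated-RNA libraries with a TruSeq kit, and a label calls the protocol reverse-stranded. The submitters' processing notes name GRCm38. Which aligner, counter, strand setting or annotation made the deposited counts: not given in the sources used here. Of the identifiers, 55240 matched GENCODE M21, and 181 did not.

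Counts were scaled with edgeR 4.0.16 in R 4.3.3 (TMM factors 0.996 and 1.00), and divided by the union of annotated exons for comparisons between genes. The common biological coefficient of variation was 0.193 over 13347 detected genes. Ratios between libraries used a prior count of 0.5, and intervals are Clopper-Pearson intervals at 95%. The GC correction was a loess fit (span 0.3) over genes with 50 or more summed counts. With 1 group, no test between conditions was possible, and p-values are not given. The ratio, its interval and the 2-fold rule were tested on simulated Poisson counts, which had no GC trend and no extra spread between libraries. Other settings were DESeq2 1.42.0 size factors, plain library sizes, transcript length, each library alone and other thresholds.

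The 10 genes and all lists were chosen with earlier results of these data known. Named are the 10 genes, their close relatives, the 2 highest and 2 lowest genes of each list, list genes past the 2-fold rule, Ago1 and the cell type markers, except 1 gene that is not reported here.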

Additional observations from a re-analysis of the deposited data

How the results depend on the processing

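No paired analysis was possible because both libraries belong to the same group. All 10 genes were detected under each of the 6 other settings, and of the 122 pathway genes from 75 (at 5 CPM) to 103 (at 0.5 CPM) were, with 97 and 99 in each library alone. The count of 0 of the 10 past the 2-fold rule was 0 under the 7 other settings. The Fgfr1 share of the receptor level was 72.5% with the longest transcript in place of 68.4%. The median log2 ratio of the 10 genes, 0.14, was 0.0876 with DESeq2 size factors, both of which came out as 1 and left the libraries unscaled, and -0.0121 with the GC correction. That correction reversed the log2 ratios of Spry4 to -0.0499, Etv4 to -0.201, Egr1 to -0.235 and Etv5 to -0.00368, and the cause was not tested. With DESeq2 size factors Spry4 was also reversed, at -0.0091, with an interval that included 0. Per longest transcript, the levels of Fgfr1, Fgfr2, Dusp6 and Etv4 moved by more than 1 SD, to 11.6, 2.04, 28.3 and 75.95 CPM per kb, and Etv4 ranked above Fgf4 and Spry4. Leaving Fgf11 to Fgf14 out of the family, an alternative chosen after seeing the data, gave 83.3% for the Fgf4 share in place of 81.2%. Each library alone gave 79.1% and 83.3% for the Fgf4 share and 68.3% and 68.5% for the Fgfr1 share. A single library of a pair always falls within 1 SD of the pair's mean. The low relatives Egr2, Egr3 and Fgf8 lay below the 1 CPM needed for detection with their whole exact Poisson intervals in both libraries. Their highest upper limit was 0.277 CPM, for Egr3 in KO1. Depth does not limit the detection of the 10 genes, which had at least 486 counts in each library. It does limit the ratio of Fgfr2, whose interval (-0.03 to 0.33) was the widest of the 10.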
